A study of Mus musculus with 2 samples.

Results

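The genes described here encode the proteins of the 2 ribosomes of a mouse cell, the cytosolic ribosome and the ribosome inside mitochondria. They were taken from the array by name: Rpl and Rps followed by a number and at most one of the letters a, x, l or y, together with the stalk genes Rplp0, Rplp1 and Rplp2, for the cytosolic family, and Mrpl and Mrps followed by a number for the mitochondrial family, without names marked -ps for pseudogenes. This gave 79 cytosolic genes on 179 probes and 77 mitochondrial genes on 103 probes, 156 genes of 31093 gene names on the array. The cytosolic ribosome translates nearly all cellular mRNA, and its many proteins are made in matched amounts from some of the most abundant mRNAs of a cell. The mitochondrial ribosome is encoded by nuclear genes apart from its RNAs, is imported in parts, and makes only the respiratory chain and ATP synthase subunits that mitochondrial DNA encodes. In liver, demand on both ribosomes follows feeding, growth signals and the energy load of hepatocytes.

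RNA came from livers of wild-type mice and of mice with the genotype Pnpla8-/-, both of strain C57BL/6N. Pnpla8 encodes a calcium-independent phospholipase that cleaves membrane phospholipids. The labels do not say in which cells or how the gene was disrupted, and name no treatment. Each genotype was 1 array of RNA pooled from 5 animals, whose age is 6 weeks in the sample labels and 8 weeks in the design text. With 1 array per genotype no test across samples was possible and no difference had a replicate check; pool, array and genotype cannot be told apart. Values below are scaled signals, the spot intensity as a multiple of the 75th percentile of its own array, or log2 ratios of knockout over wild type. A scaled signal also depends on the probe's sequence, so signals of different probes are not set against each other.

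The share of the 43020 spots well above background was 70.1% for the wild-type pool and 65.6% for the knockout pool, and 0 spots were saturated. A gene was measured where at least 1 probe was well above background on both arrays, which held for 19971 genes with a median log2 ratio of 0.04. All 8 hepatocyte markers listed were measured, Alb among them, with a median of 0.24. They ran from -0.15 for Apoa1 to 0.99 for Cps1. The scanner software's own error for a ratio was 0.20 on the log2 scale for the median member probe. Probes spotted 5 or more times had a median SD of 0.047 between spots (298 probes), and the ratios of separate probes for the same gene had one of 0.095 (4274 genes). These errors are technical and leave out the spread between animals. Log2 ratios of both families move with the scaling; without scaling the median of all genes was lower by 0.25, and values below are best read against the median of all genes.

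The mRNAs of cytosolic ribosomal proteins are known for a pyrimidine tract at their very start, the terminal oligopyrimidine or TOP motif. Through it mTORC1 signalling sets their translation. RefSeq promoter sequences (GRCm38.p6, first listed start of each gene) were at hand for 58 of the 79 cytosolic and 68 of the 77 mitochondrial genes. A C at the annotated start followed by at least 4 bases that are each C or T, read on the gene's strand only, was present in 12 of the 58 cytosolic genes (20.7%), in 0 of the 68 mitochondrial genes and in 2.49% of 27025 genes in the table. The sequences below show the tract in 5 of these 12 genes and its absence from the annotated start in 2 others. Each is 30 bases on the gene's strand with the annotated start as base 10, and capitals mark the tract. Rps6 lies at chr4:86857347-86857376 on the minus strand, Rps27 at chr3:90213628-90213657 on the minus strand, Rplp2 at chr7:141447642-141447671 on the plus strand, Rpl15 at chr14:18270966-18270995 on the minus strand and Rpl35 at chr2:39005111-39005140 on the minus strand. Rpl13a at chr7:45128725-45128754 and Rpl41 at chr10:128549148-128549177, both on the minus strand, are the lowest and the highest cytosolic genes by log2 ratio and have no such tract at the annotated start.
Rps6: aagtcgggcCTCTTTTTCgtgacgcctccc
Rps27: gctttcgctCCTTTCCggcggtgacgacct
Rplp2: agcgtcttcCTTTCgccgccggacgccgcc
Rpl15: gaaagccttCTTCCTTTCCTCTggcggcag
Rpl35: cgccctttcCTCTTTCTCTCgaaccaggct
Rpl13a: ctgcgacaagacctcctcctttcccaggcg
Rpl41: ggccggctcggaagtgacgacaccgagcac
Rpl13a holds a pyrimidine run a few bases inside the annotated transcript, and other genes counted without the tract, Rpl7a, Rpl18 and Rpl27a among them, hold runs at or beside the annotated start, so the count depends on where starts are annotated. The 12 cytosolic genes with the tract had a median log2 ratio of -0.01 and the 43 measured genes without it -0.02, a split with the same limit.

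Another promoter element was more frequent in both families than in all genes, though most members had no match. The letters CCGGAAGT, the site read by ETS factors such as GABPA, were found on one strand or the other (ACTTCCGG) between 250 bases before and 50 after the start in 10 of 58 cytosolic genes (17.2%), 11 of 68 mitochondrial genes (16.2%) and 4.0% of all genes in the table. A core of the site of NRF1, a regulator of nuclear genes for mitochondrial proteins, was found on either strand in 8.82% of the mitochondrial, 3.45% of the cytosolic and 1.05% of all promoters. No mitochondrial promoter held both motifs (0 of 68), with the ETS motif in 11 and the NRF1 core in 6. The share of all promoters with both is not given here, so this count does not show that the motifs avoid each other. The windows below come from mitochondrial genes that lie at both ends of the order of ratios, with capitals on the ETS motif. They lie at chr11:94653725-94653754 (plus strand) for Mrpl27, chr9:105053238-105053267 (plus) for Mrpl3, chr6:125192099-125192128 (plus) for Mrpl51 and chr9:98601672-98601701 (minus) for Mrps22.
Mrpl27: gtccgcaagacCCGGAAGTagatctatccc
Mrpl3: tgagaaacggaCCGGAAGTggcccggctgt
Mrpl51: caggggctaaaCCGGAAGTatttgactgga
Mrps22: aacctctcgagCCGGAAGTtgctctatcga
The 11 mitochondrial genes with this motif ranged from -0.19 to 0.34 with a median of 0.13, and the 56 measured genes without it had a median of 0.096. A match is a description of the letters and not a bound site.

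The cytosolic ribosomal protein genes were nearly level between the pools. All but 3 were measured (76 of 79), with a median log2 ratio of -0.02, quartiles of -0.069 and 0.017, and a range from -0.34 for Rpl13a to 0.16 for Rpl41. None reached 1.5-fold in either direction (0 higher and 0 lower), a limit passed upward by 4.42% and downward by 5.94% of all measured genes. Accordingly 0 reached 2-fold, which 1.29% of all genes passed upward and 1.85% downward. At a smaller limit, a log2 ratio of 0.32, 1 gene (Rpl13a) was lower and 0 were higher, against 12.9% and 13.9% of all genes. The SD over members was 0.088, and over all 1925 other genes in the brightest of 10 signal classes, where 72 of the 76 members lay, it was 0.33. Of the members 29 (38.2%) were above 0, against 56.9% of all measured genes and 71.3% of those other bright genes; this share ran from 0% without scaling or with spike-in scaling to 73.7% with median scaling.

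**Figure D1:**
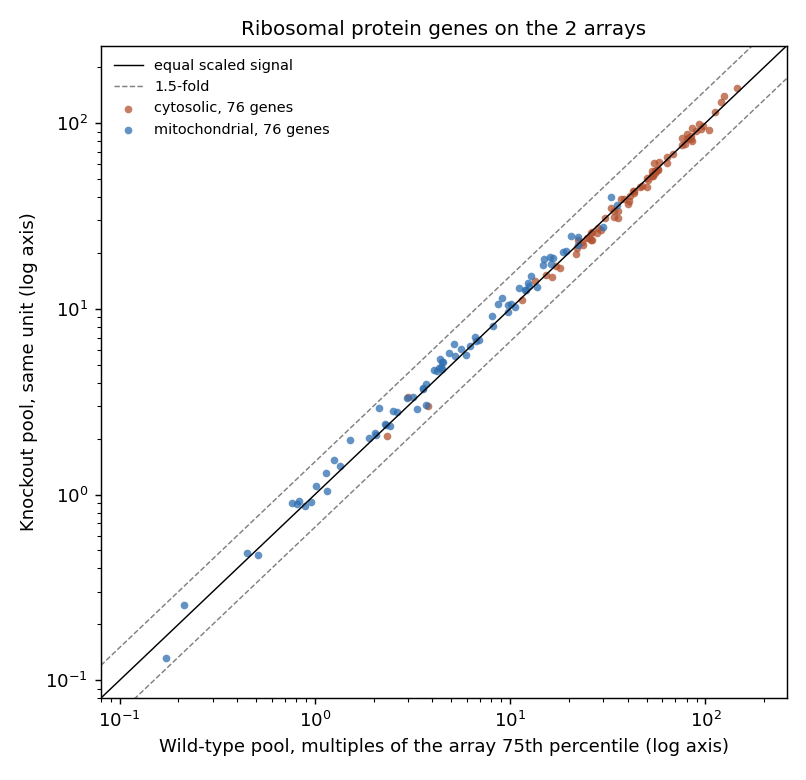
Scaled signal in the wild-type pool (x axis) and the knockout pool (y axis), both as multiples of the array's 75th percentile on log axes, for the 76 measured cytosolic and 76 measured mitochondrial genes, 1 point per gene and 1 array per genotype. Every point lies between the dashed lines that mark 1.5-fold.

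The small step below other genes depended little on the subunit. The 45 measured large-subunit genes had a median of -0.02 and the 31 small-subunit genes -0.04. The stalk, which recruits elongation factors to the large subunit, is built from Rplp0 as anchor with Rplp1 and Rplp2. Rplp0 had a scaled signal of 54.2 in wild type and 51.6 in knockout liver, a log2 ratio of -0.07. Rplp1 read 85.4 and 93.6, with ratios of 0.13 and 0.14 from its 2 probes, and Rplp2 read 97.7 and 96.2 (-0.02). The 3 stalk genes stayed within the scanner error of 0.20. Rpl5 and Rpl11, whose proteins enter the large subunit together and bind Mdm2 when ribosome assembly fails, had ratios of -0.01 (17.3 and 17.1) and 0.04 (53.5 and 55.0). Rps6, the small-subunit protein phosphorylated by S6 kinase, read 23.6 and 22.0 (-0.098), with its 3 probes running from -0.14 to 0.13.

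At the low end stood Rpl13a, a large-subunit protein also known from translational silencing in inflammation. Its 3 probes disagreed. The pair placed by the array file on chromosome 7, where the gene lies, read 3.69 against 2.81 (-0.39) and 3.79 against 3.004 (-0.34), and they overlap, so they are not independent. The other, placed on chromosome X, read 46.8 against 44.1 (-0.08). Rpl18 followed with 35.6 and 30.8 (-0.21), then Rps25 (-0.18), Rps20 with 104 and 91.7 (-0.18), and Rpl6 (-0.15). Rps25 rested on 2 probes at -0.31 and -0.05. The 4 probes of Rpl6 ran from -0.19 to 0.065, and its brightest probe was the one above 0, with 64.1 and 67.0. Rpl13a and Rpl18 were the only cytosolic genes whose ratio exceeded their scanner error, taken as the median over a gene's probes (2 lower and 0 higher of 76), where 18.2% of all measured genes were lower and 23.3% higher by more than theirs. Rpl13a was lower by -0.27 with the mean of its probes and no longer lowest with its brightest probe.

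At the high end were Rpl41, the shortest of the ribosomal proteins, with 124.5 and 139.1 (0.16), and Rps4l, an Rps4x relative, with 3.01 and 3.36 (0.16). With quantile, loess and normexp processing Rps4l and not Rpl41 was the highest. Rps2, which sits at the mRNA entry of the small subunit, had a ratio of 0.15. Rpl32 had 76.0 and 82.6 (0.12) and Rps14 119.4 and 129.7 (0.12). All 5 stayed inside the scanner error of 0.20. The 2 probes of Rps2 read 42.6 against 51.1 (0.26) and 70.2 against 72.4 (0.04). They are printed with the Rpl13a probe from chromosome X because they show how 1 member's value depends on the oligo. The array file, whose header names mm9, places the first at chr12:104105381-104105440, the second at chr17:42864841-42864900 and the Rpl13a probe at chrX:33753591-33753650.
Rps2 first probe: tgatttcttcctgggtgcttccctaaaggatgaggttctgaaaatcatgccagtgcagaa
Rps2 second probe: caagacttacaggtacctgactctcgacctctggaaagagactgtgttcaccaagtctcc
Rpl13a probe: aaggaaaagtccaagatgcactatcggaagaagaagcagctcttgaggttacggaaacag

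**Figure D2:**
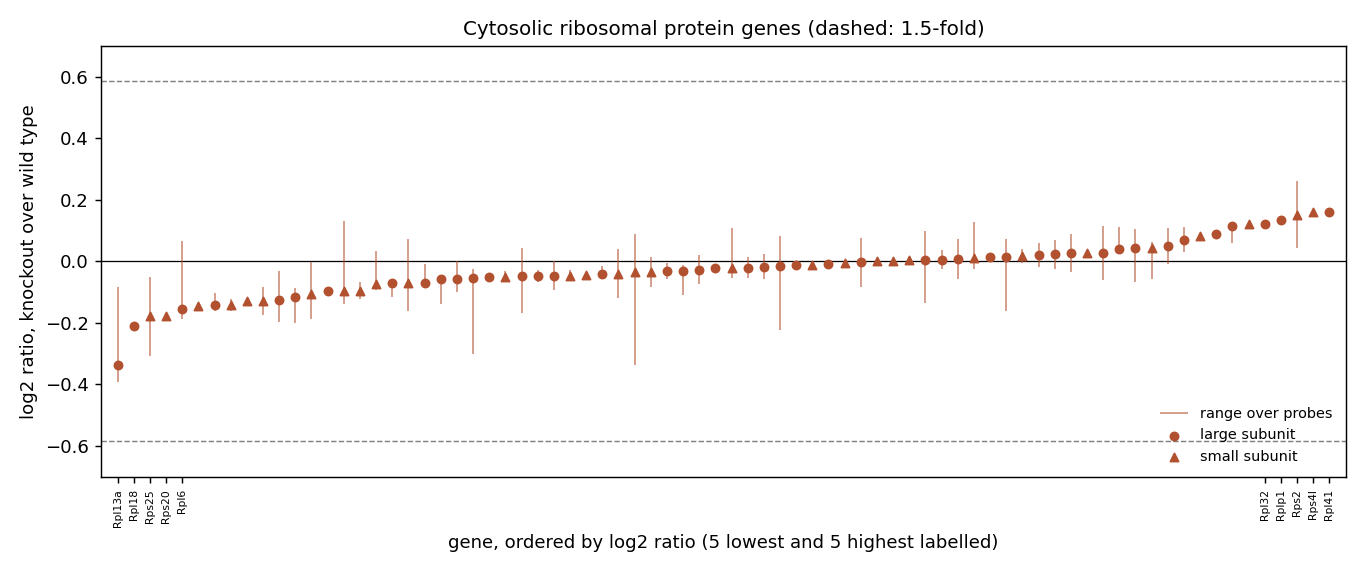
Log2 ratio of knockout over wild type (y axis) for each of the 76 measured cytosolic ribosomal protein genes, ordered by ratio (x axis); circles are large-subunit and triangles small-subunit genes, and vertical lines span the ratios of a gene's probes. Genes run from -0.34 for Rpl13a to 0.16 for Rpl41, and none crosses the dashed 1.5-fold lines.

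Cytosolic ribosomal protein genes have many processed copies elsewhere in the genome, and this showed in the array file. Of 176 cytosolic probes with a listed position and a RefSeq chromosome for their gene, 120 (68.2%) were placed on a chromosome other than the gene's own, against 8 of 93 mitochondrial probes (8.60%). A signal on such a probe can include RNA from a near-identical copy. The 120 measured probes placed elsewhere had a median ratio of -0.03 and the 50 on the gene's own chromosome -0.05, and the 6 measured pseudogene names marked -ps had a median of -0.03. Sharing a chromosome does not place a probe at its gene, so the 50 can also include probes at copies. For Rpl39, on chromosome X, the 3 probes were listed at chrX:34379054-34379113 (-0.09), chrX:34622515-34622574 (-0.20) and chrX:147927657-147927716 (-0.12). The 68.2% leaves out such cases. Among the 56 members with several measured probes the median span between probes was 0.098, and in 28 of them all probes lay on the same side of 0. The 3 probes of Rpl27a, for example, ran from -0.22 to 0.08.

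Paralogs with a narrow tissue range in textbooks were dim here. Rpl10l and Rpl39l, relatives of Rpl10 and Rpl39 known from testis, were not well above background on either array. Rpl3l, the striated-muscle relative of Rpl3, had an intensity of 12.7 in the wild type, not well above background, and of 28.1 in the knockout, which was. Against the lowest intensity well above background on the wild-type array this is at least 2.27-fold higher in the knockout pool, a log2 bound of 1.18 that came to 0.58 with the normexp background. Of 5 muscle markers listed, 1 (Mylpf, 0.38) was measured, and Ckm, Acta1, Myh4 and Tnnt3 were not. The common forms were level: Rpl3 had 0.03, Rpl10 0.04 and Rpl39 -0.12. Rps27 had 0.04 over 4 probes, Rps27l, a p53-responsive relative, -0.0053, and Rps27a, which is made as a fusion with ubiquitin, -0.05.

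The mitochondrial ribosomal protein genes stood slightly higher than the cytosolic ones. Of 77 genes 76 were measured; the other, Mrpl21, was not well above background on either array. Their median log2 ratio was 0.098, with quartiles of 0.032 and 0.20 and a range from -0.29 for Mrps6 to 0.45 for Mrps35. Of the 76 genes 60 (78.9%) were above 0, against 56.9% of all measured genes and 63.0% of other genes in signal classes 7 to 10 of 10 (median 0.066), and this share ran from 18.4% without scaling to 89.5% with median scaling. None reached 1.5-fold (0 higher and 0 lower), against 4.42% and 5.94% of all genes. At the log2 limit of 0.32, 4 were higher and 0 lower, against 13.9% and 12.9% of all genes. The median of the mitochondrial family exceeded that of the cytosolic family by 0.12, a difference that ran from 0.12 to 0.22 over all alternatives tried. Median, spike-in and no scaling and the authors' value table shift all ratios by 1 constant, so they could not change this difference. Against the median of all genes the mitochondrial family was 0.058 higher, which fell to -0.002 with quantile scaling, so its place above other genes depends on the processing.

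**Figure D3:**
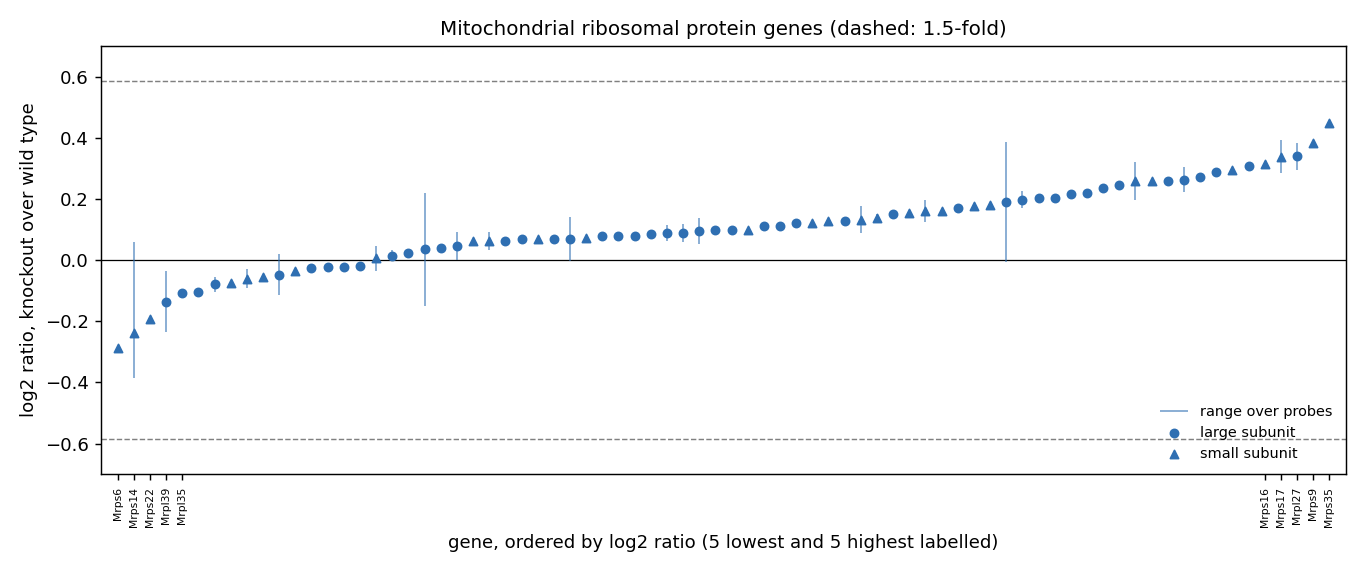
Log2 ratio of knockout over wild type (y axis) for each of the 76 measured mitochondrial ribosomal protein genes, ordered by ratio (x axis); circles are large-subunit and triangles small-subunit genes, and vertical lines span the ratios of a gene's probes. The genes run from -0.29 for Mrps6 to 0.45 for Mrps35, 60 lie above 0, and none crosses the dashed 1.5-fold lines.

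Mrps35, a small-subunit protein without a bacterial counterpart, was the highest member, and its scaled signal was 2.14 in wild type and 2.92 in knockout liver. Its probe was spotted 10 times and had a ratio of 0.45 ± 0.036 (SD over 10 spots of the same arrays). Mrps9, of the small-subunit head, read 1.51 and 1.98 (0.38). Mrpl27, a large-subunit protein near the site of peptide bond formation, read 9.06 and 11.46 (0.34), with both probes above 0 at 0.29 and 0.38. Mrps17, an early-assembling rRNA-binding protein, read 5.14 and 6.49 (0.34), and its probes gave 0.28 and 0.39. Mrps16, mutated in a human respiratory chain disorder, read 14.9 and 18.5 (0.31). Each of these 5 exceeded the scanner error of 0.20. Over the family 17 genes were higher and 2 lower by more than their own scanner error, against 23.3% and 18.2% of all measured genes. Other members of the higher group were Mrpl3 (0.31), Mrps5 (0.30), Mrpl18 (0.29) and Mrpl51, with 33.0 and 39.8 (0.27).

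Mrps6, of the small-subunit platform, was the lowest with 3.71 and 3.04 (-0.29). Mrps14 had a median of -0.24, yet its 3 probes read 0.17 against 0.13 (-0.39), 0.030 against 0.026 (-0.24) and 4.58 against 4.77 (0.06), so its direction rests on the probe. Mrps22, another gene of human respiratory chain disease, read 3.32 and 2.90 (-0.19). Mrps22, Mrpl39 (-0.14) and Mrpl35, with 0.51 and 0.47 (-0.11), stayed inside the scanner error. The 2 genes of the family lower by more than their own scanner error were Mrps6 and Mrps14. Among members at the ends of the signal range, Mrpl14 read 35.2 and 36.1 (0.04) and Mrpl52 29.8 and 27.7 (-0.10). Mrpl19 read 0.45 and 0.486 (0.11) and Mrpl9 0.213 and 0.255 (0.26), and none of these 4 exceeded its own scanner error. Probes also disagreed for Mrpl15, at -0.0064 and 0.39, and for Mrpl50, at -0.15 ± 0.045 (SD over 8 spots) and 0.22. For Mrpl50 the spread over spots of a probe was smaller than the gap between its 2 probes. Another repeat-spotted probe, that of Mrpl34, had -0.03 ± 0.041 (SD over 10 spots).

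The mitochondrial stalk, which binds translation factors as its cytosolic counterpart does, consists of Mrpl10, Mrpl11 and Mrpl12. Mrpl12, which also binds the mitochondrial RNA polymerase, read 20.5 and 24.6 (0.26), Mrpl10 1.89 and 2.01 (0.088) and Mrpl11 12.0 and 12.6 (0.06). Only Mrpl12 of these exceeded the scanner error. The 3 relatives of bacterial S18 had ratios of 0.07 (Mrps18a), 0.14 (Mrps18b) and -0.06 (Mrps18c). The 47 measured large-subunit genes had a median of 0.089 and the 29 small-subunit genes 0.13, and the spread was wider in the small subunit (SD 0.18) than in the large (SD 0.12). Large-subunit numbers up to 36 and small-subunit numbers up to 21 denote relatives of bacterial proteins. These 43 measured genes had a median of 0.095 and the 33 with higher numbers, found in mitochondria, 0.099. The 2 classes were formed after the values were seen.

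Genes that serve the cytosolic ribosome were near the median of all genes as well. Of 90 measured ribosome biogenesis factors, 0 reached 1.5-fold and the median was 0.03. Tsr2, a chaperone of Rps26, had -0.56, Nvl -0.38 and Las1l 0.33, each on 1 probe. Nvl was dim (0.041 and 0.032) and ran from -0.62 to 0.07 over the ways of processing, so its sign was not kept. Tsr2 (0.18 and 0.12) ran from -0.80 to -0.29. RNA polymerase I and rDNA transcription genes had 0.05 (19 genes, 0 past 1.5-fold), with Polr1a, the largest subunit, at 0.26, Polr1b at 0.25 and Taf1c at 0.15. Initiation factors had 0.03 (37 genes, 0 past 1.5-fold), with the helicase gene Eif4a2 at 0.42, Eif2s1 at -0.34 and Eif4g2 at 0.30. Elongation factors had 0.01 (8 genes, 0 past 1.5-fold), with Eif5a2 at 0.37, Eif5a at 0.35 and Eef1g at -0.21. TOP mRNAs outside the ribosome, a list that shares members with those of elongation, initiation and biogenesis, had 0.03 (18 genes, 0 past 1.5-fold). Its largest ratios were Vim at -0.41, Nap1l1 at -0.24 and Gnb2l1, the ribosomal scaffold RACK1, at 0.22. Gnb2l1 is also in the next list, of ribosomal proteins, so the name of the TOP list does not hold for it. The 7 cytosolic ribosomal proteins whose names fall outside the naming rule had 0.11, led by Rpl22l1 (0.23), Fau and Gnb2l1 (each 0.22). Their median lay above that of all genes here, and below it with quantile, loess and normexp processing.

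A few regulators above the ribosome had larger ratios than any ribosomal protein gene measured. In the list of mTORC1 and translation control, 2 of 30 genes passed 1.5-fold upward and 3 downward, against 4.42% and 5.94% of all measured genes, and the median was 0.12. Ddit4, which restrains mTORC1, read 2.86 in wild-type and 12.5 in knockout liver (2.13). Eif4ebp3, a relative of the 4E-BP repressors of cap-dependent translation, read 7.82 and 19.3 (1.30). Ddit4l, a relative of Ddit4, read 0.105 and 0.040 (-1.38) on 1 dim probe, and ran from -1.63 to -0.61 over the ways of processing. Also lower past 1.5-fold were Rps6ka1, with 5.09 and 2.85 (-0.84), and Myc, with 0.38 and 0.24 (-0.63). Array signals report mRNA abundance and carry no information on how much of it was translated.

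The machinery that makes and uses mitochondrial ribosomes lay in the same small range or above; of all measured genes 56.9% were above 0. Mitochondrial ribosomal proteins named outside the rule were all above 0 (7 of 7), with a median of 0.19, led by Dap3 (0.28), Ptcd3 (0.26) and Gadd45gip1 (0.20); this list also holds Mterf4, an assembly factor. Assembly and rRNA factors had a median of 0.12 with 25 of 32 above 0 and 0 past 1.5-fold, among them Mpv17l2 (0.46), Mettl15 (0.42) and the RNA granule protein Grsf1 (0.34). Translation factors had 0.077 (16 genes, 9 above 0, 0 past 1.5-fold), with Guf1 at 0.28, Taco1 at 0.19 and the elongation factor Gfm1 at 0.19. Genes of mitochondrial DNA expression had 0.26 with 14 of 18 above 0; Ppargc1a, a coactivator of mitochondrial biogenesis, was the 1 gene past 1.5-fold (1.08), followed by Ppargc1b (0.50) and Polg2 (0.39). Nuclear-encoded respiratory chain genes, whose products join the proteins made on mitochondrial ribosomes, had 0.27 with 39 of 40 above 0. Sdhb (0.66) was the 1 past 1.5-fold, with Cyc1 at 0.49 and Ndufa10 at 0.42. Their quartiles of 0.25 and 0.36 lay above those of the mitochondrial ribosomal proteins, 0.032 and 0.20.

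**Figure D4:**
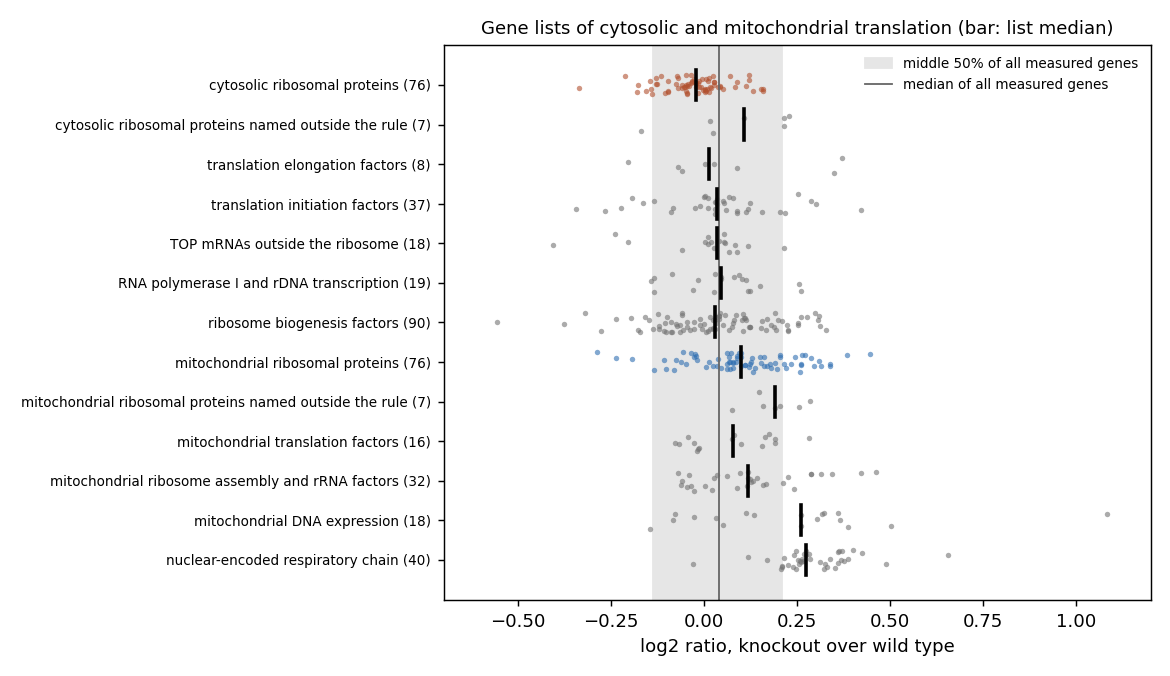
Log2 ratio of knockout over wild type (x axis) for each measured gene of the lists on the y axis, with the number of genes in brackets and a black bar at each list's median. Medians step from -0.02 for cytosolic ribosomal proteins through 0.098 for mitochondrial ones to 0.27 for the nuclear-encoded respiratory chain, and the grey band holds the middle 50% of all measured genes.

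The order of the 3 groups, cytosolic ribosome below mitochondrial ribosome below respiratory chain, was kept under all 13 ways of processing that were compared. Median, spike-in and no scaling and the authors' value table shift all ratios by 1 constant, so they could not change this order. Only quantile or loess scaling, normexp background, other filters or other summaries of probes could change it, and the order was kept there too. Relative to the median of all genes, the cytosolic family ran from -0.22 with quantile scaling to -0.06, the mitochondrial family from -0.002 to 0.059, and the respiratory chain from 0.10 to 0.23. On these arrays the median ratio was 0.0018 in the fifth of 10 signal classes, 0.11 in the brightest and 0.093 in the dimmest, and quantile and loess scaling are built to remove such differences.

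**Figure D5:**
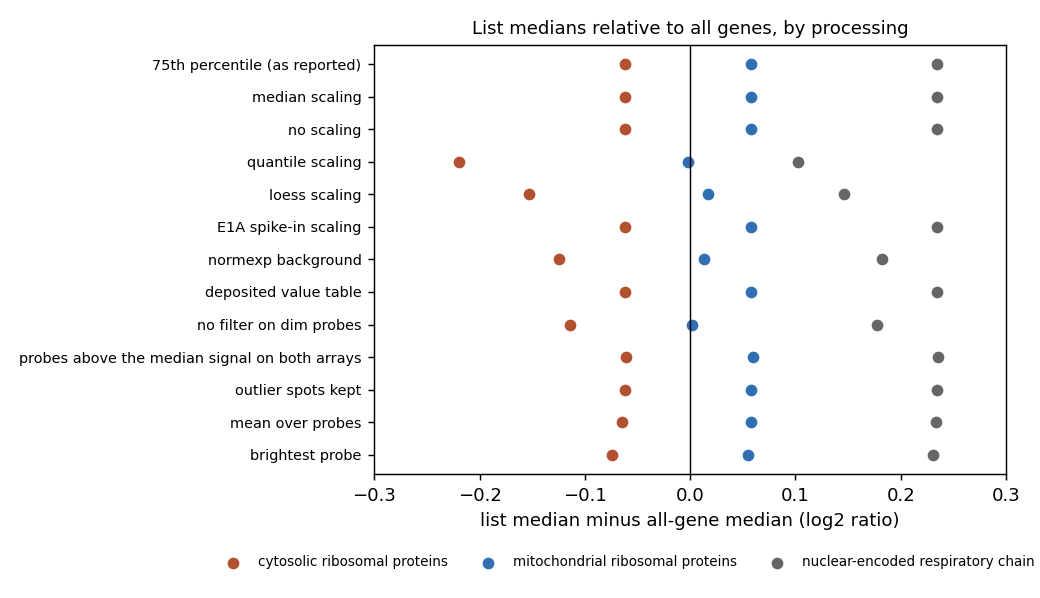
Median log2 ratio of each list minus the median of all genes under the same processing (x axis) for 13 ways of processing (y axis). The cytosolic family lies between -0.22 and -0.06, the mitochondrial family between -0.002 and 0.059, and the respiratory chain between 0.10 and 0.23.

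Markers of some other liver cells, those of macrophages, lymphocytes, proliferating cells and stellate cells, differed between the pools by more than either ribosome. Kupffer cell and macrophage markers were lower in 8 of 8 genes with a median of -0.97, and their summed scaled signal was 80.9 for wild-type and 37.7 for knockout liver. Lymphocyte markers were lower in 9 of 9 (median -0.97, sums 2.59 and 1.71), proliferating-cell markers in 7 of 7 (-1.13, sums 7.85 and 6.16) and stellate cell and fibroblast markers in 7 of 7 (-0.41, sums 12.8 and 9.07). These counts take any ratio below 0, where 56.9% of all measured genes were above 0, and include Cd3e (-0.06) and Pcna (-0.12). At the log2 limit of 0.32 the counts were, in the same order, 8 of 8, 8 of 9, 5 of 7 and 5 of 7, against 12.9% of all genes. Endothelial markers had a median of 0.02, cholangiocyte markers -0.11, erythroid markers 0.01 and exocrine pancreas markers 0.14. These medians cover 5, 5, 5 and 4 genes with wide ranges. Endothelial genes ran from -0.66 (Lyve1) to 0.03 and cholangiocyte genes from -0.20 to 0.34. Erythroid genes ran from -0.05 to 0.86 (Klf1) and exocrine pancreas genes from -1.47 (Cela1) to 0.84 (Amy2a5). In bulk liver fewer cells of a type and less RNA per cell cannot be told apart. The part of these cells in the cytosolic median was not tested.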

How the data were processed

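Total RNA was labelled with Cy3 and read on 2 one-channel Agilent arrays. The deposited scanner tables hold each spot's intensity after background subtraction; the submitters' processing notes name Agilent Feature Extraction 11.5.1.1. The authors' value table holds this intensity divided by 1207 for wild type and 1019 for knockout (column medians 0.0800 and 0.0763), on a linear scale and with genes not centred, so its direction is that of the scanner tables. Of per-sample columns, 0 were left over.

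Members and lists were chosen with earlier results of these data known. Log2 of the processed signal was taken minus each array's 75th percentile. Control spots and spots with a feature outlier mark were left out (119 on the wild-type and 170 on the knockout array). Spots of a probe were averaged, and a gene is the median over its measured probes; its scaled signals are medians per array, so their quotient can differ slightly from its ratio. A gene above background on 1 array has a bound against the lowest signal well above background on the other (log2 -6.36 wild type, -5.83 knockout). Genes were counted at 1.5-fold, and no test exists with 1 array a group. Gene names are the array file's own. Rps4l was taken out of the list outside the naming rule, since it meets the rule. Named genes were, per family, the 5 highest and 5 lowest, the 3 brightest and 3 dimmest, the 3 with the widest probe range, members or bounds past 1.5-fold, fixed stalk, paralog and signalling genes, the 3 largest differences of each related list and its members past 2-fold; a few others were named after their values were seen, and 1 gene that the rule names is not reported here. The steps were tested on simulated data. Tools were Python 3.11.15, pandas 2.3.3, numpy 2.4.6, statsmodels 0.14.6 and limma 3.58.1 in R 4.3.3.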

Additional observations from a re-analysis of the deposited data

How the results depend on the processing

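With 1 array per genotype there was no replicate to leave out. No paired analysis was possible because each genotype has 1 array. Every comparison therefore rests on 2 arrays, and dim genes are limited by background. Results were recomputed with median, quantile, loess (span 0.3), spike-in (E1A) or no scaling, normexp background (offset 50), the authors' value table, other filters and summaries of probes, and other fold limits.

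Without scaling the medians were -0.27 for the cytosolic and -0.15 for the mitochondrial family, -0.14 for cytosolic proteins outside the rule, -0.23 for elongation factors, -0.21 for initiation factors, -0.21 for TOP mRNAs, -0.13 for mTORC1, -0.20 for RNA polymerase I, -0.22 for biogenesis, -0.053 for mitochondrial proteins outside the rule, -0.17 for mitochondrial translation factors, -0.13 for assembly factors, 0.016 for mitochondrial DNA expression and 0.029 for the respiratory chain. With spike-in scaling these were, in the same order, -0.19, -0.065, -0.057, -0.15, -0.13, -0.13, -0.046, -0.12, -0.13, 0.029, -0.086, -0.0454, 0.098 and 0.11. With quantile scaling the cytosolic family had -0.18, cytosolic proteins outside the rule 0.00949, elongation factors -0.12, TOP mRNAs -0.067, mitochondrial proteins outside the rule 0.096, the respiratory chain 0.14 and the difference between the families 0.22. With loess the cytosolic family had -0.15, cytosolic proteins outside the rule 0.000555, elongation factors -0.093 and the respiratory chain 0.15. Each such shift exceeded 0.095, the median SD between probes of a gene. These scalings are built to move all genes together or to remove a trend with signal. Counts of members past 1.5-fold were 0 in each family and direction, except that without the filter on dim probes 2 cytosolic genes (Rpl3l and Rpl39l) were higher, and that at a log2 limit of 0.32 1 cytosolic gene was lower and 4 mitochondrial genes were higher. The deposited table, median scaling, normexp and the mean or brightest probe moved no family or list median by more than that SD.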
